A study of Homo sapiens with 6 samples.

Results

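The genes of DNA replication and S phase described here are 44 genes named for their part in copying the genome, from the licensing of origins to chromatin assembly behind the fork. They were taken by gene name from a list of replication genes, drawn up with earlier results of these data known. All 44 were found among the 20333 gene intervals of the deposited table, all had at least 10 counts (the smallest count of any of them in any library was 187), and all 44 passed the filter on low counts and were tested.

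Nascent transcription was measured by PRO-seq, a nuclear run-on assay that maps engaged RNA polymerase in permeabilised cells. The cells were T47D, an established line of luminal, oestrogen receptor-positive, HER2-negative breast cancer, so every result here is from 1 line. Cultures in complete medium, with its growth factors, were exposed for 5 h to DMSO (the solvent, as the control), to 500 nM GDC0068, a catalytic inhibitor of the kinase AKT, or to 100 nM INY-05-040, which degrades AKT and is called Degrader in the labels and here. The submitters chose these doses so that signalling downstream of AKT was suppressed to a comparable extent. Each arm had 2 libraries, and the series describes 2 independent experiments, so p-values measure the spread between these libraries. The question for these genes is whether their transcription differed from the control after each drug, and between the drugs.

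Replication origins are licensed in G1, when the origin recognition complex, CDC6 and CDT1 load the MCM2 to MCM7 helicase onto DNA. At the start of S phase CDC45 and the GINS complex join MCM to form the active helicase, and the primase and polymerases, the sliding clamp PCNA and its loader RFC carry out synthesis. Many of these genes are textbook targets of the E2F transcription factors, which the retinoblastoma protein holds in check until cyclin-dependent kinases phosphorylate it. AKT is known to act upstream of this switch, among other routes by restraining FOXO factors and the CDK inhibitor p27.

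The libraries held 25371819 to 32192576 counts over all intervals. Of those counts, 0.275% and 0.281% lay in the 44 genes in the controls, 0.231% and 0.248% with GDC0068, and 0.245% and 0.256% with Degrader. As a check of the cell type, 10 of 10 luminal markers had counts. Their summed level was 5588 to 6000 CPM (counts per 1000000 of the TMM-scaled library total) across the libraries. TFF1, the lowest of them, was at 4.08 to 5.84 CPM. Of 10 markers of other cell types, ACTA2 has a row in the table used here, at 3.11 to 5.63 CPM. The other 9 have no row in it, so their levels could not be compared.

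Of the 44 replication genes, 13 passed the test as lower after each drug and 31 did not pass. The share that fell under Degrader, at an adjusted p under 0.05, was 29.5% with 0 higher, where 15.3% of all 19902 genes tested were called, 7.88% as lower and 7.39% as higher. Under GDC0068 13 of the 44 fell and 0 rose (29.5%), where 3.58% of all genes were called, 1.88% as lower and 1.7% as higher. No member was higher at an unadjusted p under 0.05 by edgeR in either comparison, where 2930 (Degrader) and 2072 (GDC0068) of 19902 genes were. DESeq2 and limma voom also called 0 members higher and 13 lower in each. The median log2 fold change of the 44 was -0.15 under Degrader and -0.18 under GDC0068, beside medians of -0.00 and 0.01 over all genes tested. These are changes relative to the bulk of genes, since no outside standard was used, and in a bulk culture fewer cells in S phase and less transcription per cell cannot be told apart.

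Most members had small negative values, whether or not they passed. Negative log2 fold changes were found for 38 of the 44 under Degrader, beside 10016 of 19902 genes, and 43 of the 44 under GDC0068, beside 9429. The members' values ran from -0.42 to 0.08 under Degrader and from -0.53 to 0.12 under GDC0068. Both drug libraries lay below both DMSO libraries for 31 members under Degrader, beside 29.2% of all genes, and for 35 under GDC0068, beside 24% of all genes. Both lay above for 1 member in each, RFC1 under Degrader (29.3% of all genes lay higher in this way) and RPA3 under GDC0068 (26.1%), both without a call. Taken library by library within a replicate number, the members' median log2 difference from DMSO was -0.15 and -0.12 for Degrader and -0.22 and -0.15 for GDC0068.

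**Figure D1:**
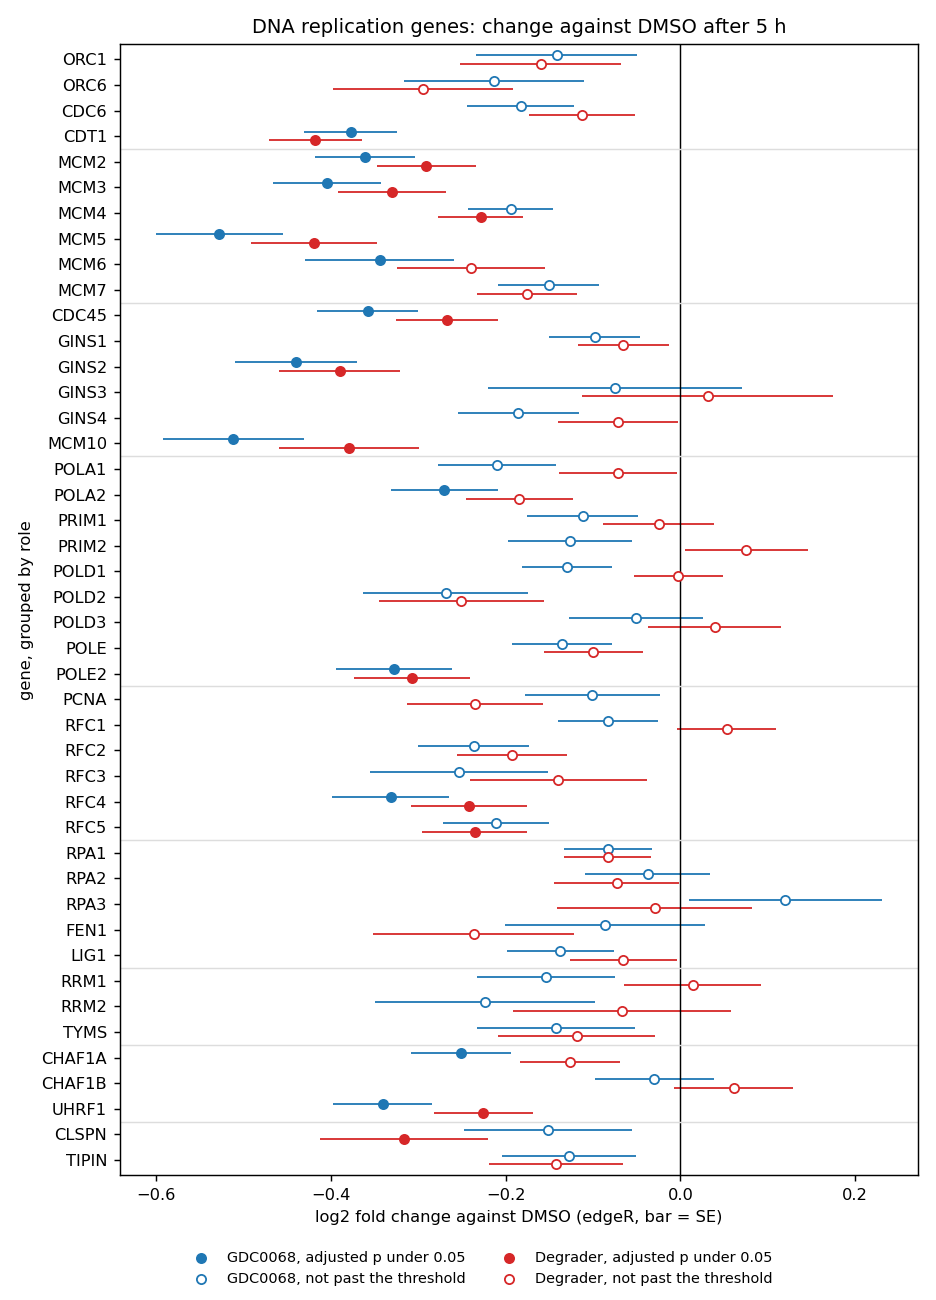
Log2 fold change from DMSO for each of the 44 replication genes, grouped by role, under GDC0068 (blue) and Degrader (red), with bars of 1 SE from the edgeR fit; filled points passed an adjusted p of 0.05. Most points lie below 0, by up to -0.53 under GDC0068 and -0.42 under Degrader.

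The 13 genes that fell under Degrader and the 13 that fell under GDC0068 shared 10 (76.9% of each list): CDT1, MCM2, MCM3, MCM5, CDC45, GINS2, MCM10, POLE2, RFC4 and UHRF1. The comparisons share their DMSO libraries, so the 2 lists are not independent. MCM4, RFC5 and CLSPN were called under Degrader alone, and MCM6, POLA2 and CHAF1A under GDC0068 alone; for none of these 6 did the difference between the drugs pass the edgeR test. With the replicate number as a block, 22 members fell under Degrader (30.7% of all genes were called, 15.7% as lower and 15.1% as higher) and 27 under GDC0068 (17.8% called, 8.91% as lower and 8.87% as higher), with 0 higher in both and all of the original 13 kept in each. The counts depended on single libraries, and so did the numbers of all genes called, whose ranges are in the last section. Leaving out a library of an arm left that arm with a single library. Under Degrader 4 members were called without DMSO replicate 1, 6 without DMSO replicate 2, 6 without Degrader replicate 1 and 9 without Degrader replicate 2, against 15 without either GDC0068 library. Under GDC0068 the counts were 0 without DMSO replicate 1, 5 without DMSO replicate 2, 6 without GDC0068 replicate 1 and 8 without GDC0068 replicate 2, against 11 without either Degrader library. Every one of these calls was of a lower level. The calls of CDT1, MCM3 and GINS2 under Degrader held whichever library was left out, and no call under GDC0068 did.

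Promoters of 38 of the 44 members were found in a RefSeq table of the GRCh38.p14 assembly. It gives 250 bases before and 50 bases after the start of each gene. The start in the deposited table lay within 50 bases of that start for 27 of the 38 and within 250 bases for 31. TIPIN (30065 bases), PCNA (6664) and PRIM2 (2825) lay furthest, so their windows do not cover the start of the counted interval. Nor do those of MCM7 (-496, a minus meaning before the RefSeq start), GINS3 (418), POLD1 (-393) and CDC6 (-332). The windows of RRM1 (120), MCM6 (78), RFC5 (62) and TYMS (56) also end before that start. Words of the E2F site (TTTCCCGC, TTTCGCGC, TTTGCCGC or TTTGGCGC, on either strand, overlapping matches each counted) were found in 19 of the 38 (50%), beside 3.31% of all 35116 promoters in the table. They were found in 6 of the 9 matched genes called under both drugs and in 10 of the 24 called under neither (41.7%). Among the related lists described below, they were in 5 of 35 promoters of the other replication genes (14.3%). For regulators of the G1 to S transition it was 6 of 23 (26.1%), and for mitosis genes 2 of 22 (9.09%). A match describes the letters only and is not a site shown to be bound. The 30 bases around the word nearest the start are printed for those 6 genes, 5′ to 3′ on the strand of the gene. These genes are printed because they are the matched members called under both drugs that carry the word. Capitals mark the E2F word or overlapping words. They lie at chr16:88803743-88803772 on the plus strand (CDT1), chr3:127598406-127598435 on the plus strand (MCM2), chr6:52284728-52284757 on the minus strand (MCM3), chr16:85688967-85688996 on the minus strand (GINS2), chr14:49688201-49688230 on the minus strand (POLE2) and chr19:4909476-4909505 on the plus strand (UHRF1).
CDT1: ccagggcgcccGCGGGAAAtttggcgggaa
MCM2: aaccactTTTCGCGCGAAAcctggttgttg
MCM3: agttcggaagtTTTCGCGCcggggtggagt
GINS2: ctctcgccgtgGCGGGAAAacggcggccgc
POLE2: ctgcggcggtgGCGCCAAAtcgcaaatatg
UHRF1: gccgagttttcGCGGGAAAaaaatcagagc
CDT1, GINS2 and UHRF1 share the word read as GCGGGAAA on the gene's strand, and in MCM2 a pair of words overlaps on opposite strands. CDC45, MCM10 and RFC4 were called under both drugs and have none of these words in this window. MCM5, also called under both drugs, had no promoter matched and was not searched.

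MCM6 has 4 E2F words in 2 overlapping pairs, the most of any member matched, and the 250 bases before its start are shown for that reason (chr2:135876444-135876693, minus strand, capitals marking the words).
MCM6: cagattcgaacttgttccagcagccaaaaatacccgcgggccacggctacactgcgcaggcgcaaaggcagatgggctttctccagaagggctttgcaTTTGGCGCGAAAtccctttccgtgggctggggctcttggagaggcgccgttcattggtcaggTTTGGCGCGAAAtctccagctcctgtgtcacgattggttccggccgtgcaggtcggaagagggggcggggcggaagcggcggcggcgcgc
Each pair reads as the same 12 letters. The CCAAT word (either strand), a binding sequence of NF-Y, was found in 24 of the 38 members (63.2%), beside 34.6% of all promoters. The same word was in 15 of 22 promoters of the mitosis genes (68.2%) and 17 of 35 of the other replication genes (48.6%). Among regulators of the G1 to S transition it was in 7 of 23 (30.4%). The word TTTGAA, known as the cell cycle homology region of late cell cycle genes, was in 1 of the 38 (2.63%), beside 15.2% of all promoters and 15 of 22 promoters of the mitosis genes (68.2%). The forkhead word GTAAACA was in 0 of the 38, beside 3.42% of all promoters.

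Among the genes of origin recognition and licensing, 1 of 4 fell under each drug. CDT1, which with CDC6 loads the MCM helicase (chr16:88803821-88809258, plus strand), was at 77.9 and 75.2 CPM in the controls, 59.0 and 58.9 under GDC0068 and 56.1 and 58.6 under Degrader. Every treated library lay below both controls. CDT1 had a log2 fold change of -0.42 (SE 0.053, adjusted p = 0.000667, edgeR) under Degrader, to 0.748 of the control level, and -0.38 (SE 0.053, adjusted p = 0.00702) under GDC0068, where the adjusted p was 0.0685 without DMSO replicate 1. Per kilobase of its interval CDT1 had the highest level of the 44 genes in DMSO, at 14.1 CPM per kb. ORC1 and ORC6, subunits of the origin recognition complex, and CDC6 also lay lower in every treated library, with log2 fold changes of -0.11 to -0.29 under Degrader and -0.14 to -0.21 under GDC0068, and none passed the test. With the replicate block ORC6 passed under Degrader (adjusted p = 0.0193) and CDC6 under GDC0068 (adjusted p = 0.00983).

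The MCM helicase was the role with the most calls: 4 of its 6 subunits fell under each drug, and for all 6 both libraries of each drug lay below both controls. The summed level of the 6 genes was 335 and 331 CPM in DMSO, 272 and 270.0 under GDC0068 and 272 and 282 under Degrader. Median log2 fold changes over the 6 were -0.27 for Degrader and -0.35 for GDC0068. With the replicate block all 6 fell under both drugs.

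MCM5 (chr22:35400142-35424501, plus strand) had the largest fitted fall of the 44 genes under both drugs, with CDT1 next under Degrader. It was at 42.8 and 39.5 CPM in DMSO, 29.6 and 27.6 under GDC0068 and 30.8 and 30.8 under Degrader. MCM5 had a log2 fold change of -0.53 (SE 0.072, adjusted p = 0.00629) under GDC0068, to 0.694 of the control, and -0.42 (SE 0.072, adjusted p = 0.00316) under Degrader. Without DMSO replicate 1, the higher of the controls, the adjusted p of MCM5 was 0.0688 and 0.0535. MCM3 (chr6:52264015-52284742, minus strand) was at 53.9 and 53.5 CPM in DMSO, 40.2 and 41.0 under GDC0068 and 40.9 and 44.6 under Degrader. Its controls were nearly equal and lay above all 4 treated libraries. MCM3 had a log2 fold change of -0.40 (SE 0.062, adjusted p = 0.00907) under GDC0068, with an adjusted p of 0.0723 without DMSO replicate 1, and -0.33 (SE 0.062, adjusted p = 0.00502) under Degrader. MCM2 (chr3:127598410-127622436, plus strand) was at 58.2 and 56.2 CPM in DMSO, 45.7 and 43.5 under GDC0068 and 46.7 and 46.8 under Degrader. Its treated libraries all lay below the controls, and those of the 2 drugs did not overlap. MCM2 had a log2 fold change of -0.36 (SE 0.057, adjusted p = 0.00955) under GDC0068 and -0.29 (SE 0.057, adjusted p = 0.00648) under Degrader. Without DMSO replicate 1 the adjusted p of MCM2 was 0.0872 and 0.0657, and without GDC0068 replicate 2 it was 0.0651 under GDC0068.

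The other three MCM subunits had smaller log2 fold changes. MCM4 was at 85.2 and 86.5 CPM in DMSO, 75.0 and 75.1 under GDC0068 and 73.1 and 73.4 under Degrader. For this gene the 2 libraries of each arm lay closer together than the arms did. MCM4 had a log2 fold change of -0.23 (SE 0.049, adjusted p = 0.00962) under Degrader and -0.19 (SE 0.049, adjusted p = 0.0514) under GDC0068, the latter with an adjusted p of 0.00125 with the replicate block. Its Degrader call was lost without DMSO replicate 1 (adjusted p = 0.0564), DMSO replicate 2 (0.0554), Degrader replicate 1 (0.0574) or Degrader replicate 2 (0.0683). MCM6 (chr2:135839626-135876365, minus strand) was at 27.5 and 30.4 CPM in DMSO, 22.3 and 23.2 under GDC0068 and 23.8 and 25.2 under Degrader. It had the lowest level per kilobase of the 6 subunits, at 0.789 CPM per kb in DMSO. MCM6 had a log2 fold change of -0.34 (SE 0.085, adjusted p = 0.0487) under GDC0068 and -0.24 (SE 0.084, adjusted p = 0.0784) under Degrader, the latter with an adjusted p of 0.0143 with the replicate block. Its GDC0068 call was lost without any 1 of the 6 libraries, with an adjusted p of 0.131 and 0.241 without DMSO replicates 1 and 2, 0.144 and 0.11 without GDC0068 replicates 1 and 2, and 0.0613 and 0.0589 without Degrader replicates 1 and 2. MCM7, whose interval overlaps those of MIR25 and AP4M1, had log2 fold changes of -0.18 (adjusted p = 0.0609) and -0.15 (adjusted p = 0.168), with adjusted p of 0.00609 and 0.0288 with the block.

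**Figure D2:**
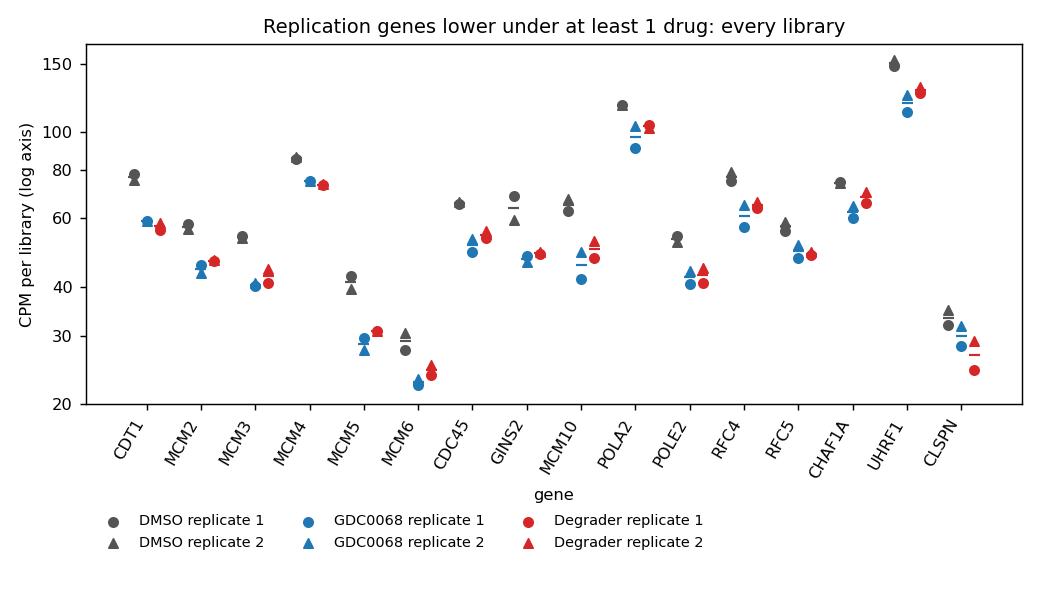
Level of the replication genes called under either drug in each of the 6 libraries, in CPM on a log axis; circles are replicate 1, triangles replicate 2 and short lines the mean of each arm. For the 10 genes called under both drugs, all 4 treated libraries lie below both DMSO libraries.

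Of the 6 genes of helicase activation, CDC45, GINS2 and MCM10 fell under both drugs, and GINS1, GINS3 and GINS4 under neither. MCM10, which binds the MCM helicase as it is switched on (chr10:13161579-13209736, plus strand), was at 62.8 and 67.3 CPM in DMSO, 41.8 and 49.2 under GDC0068 and 47.4 and 52.6 under Degrader. In each arm replicate 2 was the higher, and the arms did not overlap with DMSO. MCM10 had a log2 fold change of -0.51 (SE 0.081, adjusted p = 0.00955) under GDC0068, to 0.701 of the control, and -0.38 (SE 0.080, adjusted p = 0.00919) under Degrader. Its adjusted p under GDC0068 was 0.0556 without DMSO replicate 1 and 0.0653 without DMSO replicate 2, and under Degrader 0.0600 without DMSO replicate 2 and 0.0716 without Degrader replicate 1. GINS2, a subunit of the GINS complex (chr16:85676198-85689004, minus strand), was at 68.5 and 59.4 CPM in DMSO, 48.1 and 46.3 under GDC0068 and 48.6 and 49.1 under Degrader. Controls of GINS2 differed more than any treated pair, and both stayed above it. GINS2 had a log2 fold change of -0.44 (SE 0.070, adjusted p = 0.00955) under GDC0068 and -0.39 (SE 0.069, adjusted p = 0.00383) under Degrader, and the GDC0068 call was lost without DMSO replicate 1 (adjusted p = 0.0826) or GDC0068 replicate 2 (0.0665).

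CDC45, which joins MCM and GINS in the active helicase (chr22:19479929-19520608, plus strand), was at 65.2 and 66.1 CPM in DMSO, 49.2 and 53.0 under GDC0068 and 53.3 and 55.7 under Degrader. No arms overlapped, with GDC0068 lowest. CDC45 had a log2 fold change of -0.36 (SE 0.058, adjusted p = 0.0107) under GDC0068 and -0.27 (SE 0.058, adjusted p = 0.0103) under Degrader. Without DMSO replicate 1 its adjusted p was 0.0737 and 0.0634, without DMSO replicate 2 it was 0.0664 and 0.0550, without GDC0068 replicate 1 it was 0.0540 under GDC0068, and without Degrader replicate 1 it was 0.0776 under Degrader. All other GINS subunits differed less from the control. Log2 fold changes of GINS1, GINS3 and GINS4 were -0.10, -0.07 and -0.19 under GDC0068 and -0.07, 0.03 and -0.07 under Degrader. GINS3 was the least transcribed of the 44 genes by count, at 6.78 and 8.56 CPM in DMSO, and its arms overlapped. GINS4, whose interval overlaps AC009630.1 on the other strand, passed under GDC0068 with the replicate block (adjusted p = 0.0495).

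The 9 genes of the primase and the replicative polymerases gave 1 call under Degrader and 2 under GDC0068. POLE2, the second subunit of polymerase epsilon (chr14:49643555-49688186, minus strand), was at 54.1 and 52.2 CPM in DMSO, 40.7 and 43.9 under GDC0068 and 41.0 and 44.8 under Degrader. Libraries of the 2 drugs for POLE2 interleaved with each other below the controls. POLE2 had a log2 fold change of -0.33 (SE 0.067, adjusted p = 0.0256) under GDC0068 and -0.31 (SE 0.066, adjusted p = 0.0102) under Degrader. Its GDC0068 call was lost without DMSO replicate 1 (adjusted p = 0.169), DMSO replicate 2 (0.0847), GDC0068 replicate 1 (0.111) or GDC0068 replicate 2 (0.0611), and its Degrader call without DMSO replicate 1 (0.0905) or Degrader replicate 1 (0.0855). POLA2, the B subunit of polymerase alpha (chr11:65261977-65298685, plus strand), was at 117 and 118 CPM in DMSO, 90.8 and 104 under GDC0068 and 104 and 102 under Degrader. Its controls were nearly equal and the GDC0068 libraries further apart, with GDC0068 replicate 1 the lowest of the 6. POLA2 had a log2 fold change of -0.27 (SE 0.061, adjusted p = 0.0369) under GDC0068 and -0.18 (SE 0.061, adjusted p = 0.0631) under Degrader, the latter with an adjusted p of 0.00141 with the block. Its GDC0068 call was lost without DMSO replicate 1 (0.172), DMSO replicate 2 (0.143), GDC0068 replicate 1 (0.154), Degrader replicate 1 (0.0501) or Degrader replicate 2 (0.0502).

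The catalytic subunits of the polymerases did not pass the test without the block under either drug. POLA1, of polymerase alpha, had log2 fold changes of -0.21 under GDC0068 and -0.07 under Degrader. POLE, of polymerase epsilon, had -0.14 and -0.10, and POLD1, of polymerase delta, -0.13 and -0.00. For the primase subunits PRIM1 and PRIM2 the values were -0.11 and -0.13 under GDC0068 and -0.03 and 0.08 under Degrader. PRIM2 has the longest interval of the 44 genes, 329221 bases, and the lowest level per kilobase, 0.367 CPM per kb in DMSO. POLD2 and POLD3, accessory subunits of polymerase delta, were at -0.27 and -0.05 under GDC0068 and -0.25 and 0.04 under Degrader. With the replicate block 7 of the 9 fell under GDC0068 and 3 under Degrader. Those under GDC0068 included the catalytic subunits POLA1 (adjusted p = 7.07e-05), POLE (0.0164) and POLD1 (0.0439), and also PRIM2 (0.0158). POLD2 passed with the block under Degrader (0.00113) and GDC0068 (0.00154).

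PCNA, the sliding clamp, and the 5 subunits of its loader RFC gave 2 calls under Degrader and 1 under GDC0068. RFC4 (chr3:186789900-186806468, minus strand) was at 74.7 and 79.0 CPM in DMSO, 56.9 and 65.0 under GDC0068 and 63.8 and 66.1 under Degrader. GDC0068 replicate 1 was the lowest library, and no treated library reached the controls. RFC4 had a log2 fold change of -0.33 (SE 0.067, adjusted p = 0.0247) under GDC0068 and -0.24 (SE 0.066, adjusted p = 0.0310) under Degrader. Its GDC0068 call was lost without DMSO replicate 1 (0.0928), DMSO replicate 2 (0.137) or GDC0068 replicate 1 (0.106), and its Degrader call without DMSO replicate 1 (0.0790), DMSO replicate 2 (0.154), Degrader replicate 1 (0.144) or Degrader replicate 2 (0.100). RFC5 (chr12:118016765-118032234, plus strand, overlapping AC131159.2 on the other strand) was at 55.8 and 58.8 CPM in DMSO, 47.6 and 51.3 under GDC0068 and 48.3 and 49.1 under Degrader. All 4 treated libraries of RFC5 lay below the controls, and those of the 2 drugs overlapped. RFC5 had a log2 fold change of -0.24 (SE 0.060, adjusted p = 0.0230) under Degrader and -0.21 (SE 0.060, adjusted p = 0.0769) under GDC0068, the latter with an adjusted p of 0.00336 with the block. Its Degrader call was lost without DMSO replicate 1 (0.0669), DMSO replicate 2 (0.128), Degrader replicate 1 (0.108) or Degrader replicate 2 (0.0993).

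The rest of the clamp and loader genes did not pass without the block. PCNA was at 31.5 and 34.9 CPM in DMSO, 30.6 and 31.2 under GDC0068 and 27.3 and 29.0 under Degrader. Its Degrader libraries were the lowest, with a log2 fold change of -0.24 (adjusted p = 0.0629, and 0.00837 with the block), against -0.10 (adjusted p = 0.510) under GDC0068. RFC2 and RFC3 were at -0.19 and -0.14 under Degrader and -0.24 and -0.25 under GDC0068. With the block RFC2 passed under Degrader (adjusted p = 0.00232) and GDC0068 (0.000791), and RFC3 under GDC0068 (0.0486). RFC1, the large subunit of the loader, was at 0.05 and -0.08.

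Genes of single-strand binding and Okazaki fragment processing, and of nucleotide supply, gave 0 calls among 5 and 3 members under either drug by edgeR, DESeq2 or limma voom. By edgeR 15.3% of all genes were called under Degrader and 3.58% under GDC0068. Groups of 5 and 3 are too small to tell 0 calls from those shares. At an unadjusted p under 0.05 the edgeR count was 0 under Degrader in both groups, beside 5948 of 19902 genes. Under GDC0068 it was 1 (LIG1) and 0, beside 3972 of 19902 genes. The replication protein A subunits RPA1, RPA2 and RPA3, which coat single-stranded DNA, had log2 fold changes of -0.08, -0.07 and -0.03 under Degrader and -0.08, -0.04 and 0.12 under GDC0068. RPA3 was the 1 member of the 44 with a positive value under GDC0068. FEN1, the flap endonuclease, and LIG1, the ligase that seals Okazaki fragments, were at -0.24 and -0.07 under Degrader and -0.09 and -0.14 under GDC0068. With the replicate block FEN1 passed under Degrader (adjusted p = 0.0230) and LIG1 under GDC0068 (0.0479).

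RRM2, the small subunit of ribonucleotide reductase, differed more between replicates than between arms. It was at 46.5 and 57.5 CPM in DMSO, 39.5 and 49.2 under GDC0068 and 44.0 and 55.1 under Degrader. Replicate 2 was higher in all 3 arms and the arms overlapped. RRM2 had a log2 fold change of -0.22 (adjusted p = 0.352) under GDC0068, with an adjusted p of 0.00204 with the block, and -0.07 (adjusted p = 0.768, and 0.313 with the block) under Degrader. RRM1, the large subunit, and TYMS, thymidylate synthase, were at -0.15 and -0.14 under GDC0068 and 0.01 and -0.12 under Degrader, and overlapped DMSO under GDC0068.

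Among genes of chromatin assembly and maintenance methylation, UHRF1 fell under both drugs and CHAF1A under GDC0068. UHRF1, which recruits the maintenance methyltransferase to newly copied DNA (chr19:4909501-4962154, plus strand), was at 147 and 153 CPM in DMSO, 113 and 125 under GDC0068 and 126 and 131 under Degrader. No arms overlapped. UHRF1 had a log2 fold change of -0.34 (SE 0.057, adjusted p = 0.0114) under GDC0068 and -0.23 (SE 0.056, adjusted p = 0.0204) under Degrader. Its GDC0068 call was lost without DMSO replicate 1 (0.0687), DMSO replicate 2 (0.0756) or GDC0068 replicate 1 (0.0575), and its Degrader call without DMSO replicate 1 (0.0717), DMSO replicate 2 (0.104), Degrader replicate 1 (0.121) or Degrader replicate 2 (0.0754). CHAF1A, the large subunit of chromatin assembly factor 1 (chr19:4402651-4443397, plus strand), was at 74.3 and 74.0 CPM in DMSO, 59.98 and 64.5 under GDC0068 and 65.8 and 70.0 under Degrader. No arms overlapped. CHAF1A had a log2 fold change of -0.25 (SE 0.058, adjusted p = 0.0378) under GDC0068 and -0.13 (SE 0.057, adjusted p = 0.163) under Degrader, the latter with an adjusted p of 0.0290 with the block. Its GDC0068 call was lost without DMSO replicate 1 (0.183), DMSO replicate 2 (0.144), GDC0068 replicate 1 (0.159) or GDC0068 replicate 2 (0.0732). CHAF1B, its partner subunit, was at 0.06 under Degrader and -0.03 under GDC0068.

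Of the fork protection genes, CLSPN fell under Degrader. CLSPN encodes claspin, which links the fork to checkpoint signalling (chr1:35732112-35769951, minus strand), and was at 31.9 and 34.8 CPM in DMSO, 28.2 and 31.7 under GDC0068 and 24.5 and 29.0 under Degrader. Both Degrader libraries lay below the controls but 1 of them lay within the range of GDC0068. CLSPN had a log2 fold change of -0.32 (SE 0.096, adjusted p = 0.0463) under Degrader and -0.15 (SE 0.096, adjusted p = 0.410) under GDC0068. Its Degrader call was lost without DMSO replicate 1 (0.102), DMSO replicate 2 (0.219) or Degrader replicate 1 (0.276). TIPIN, a partner of TIMELESS at the fork, was at -0.14 and -0.13 without a call.

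**Figure D3:**
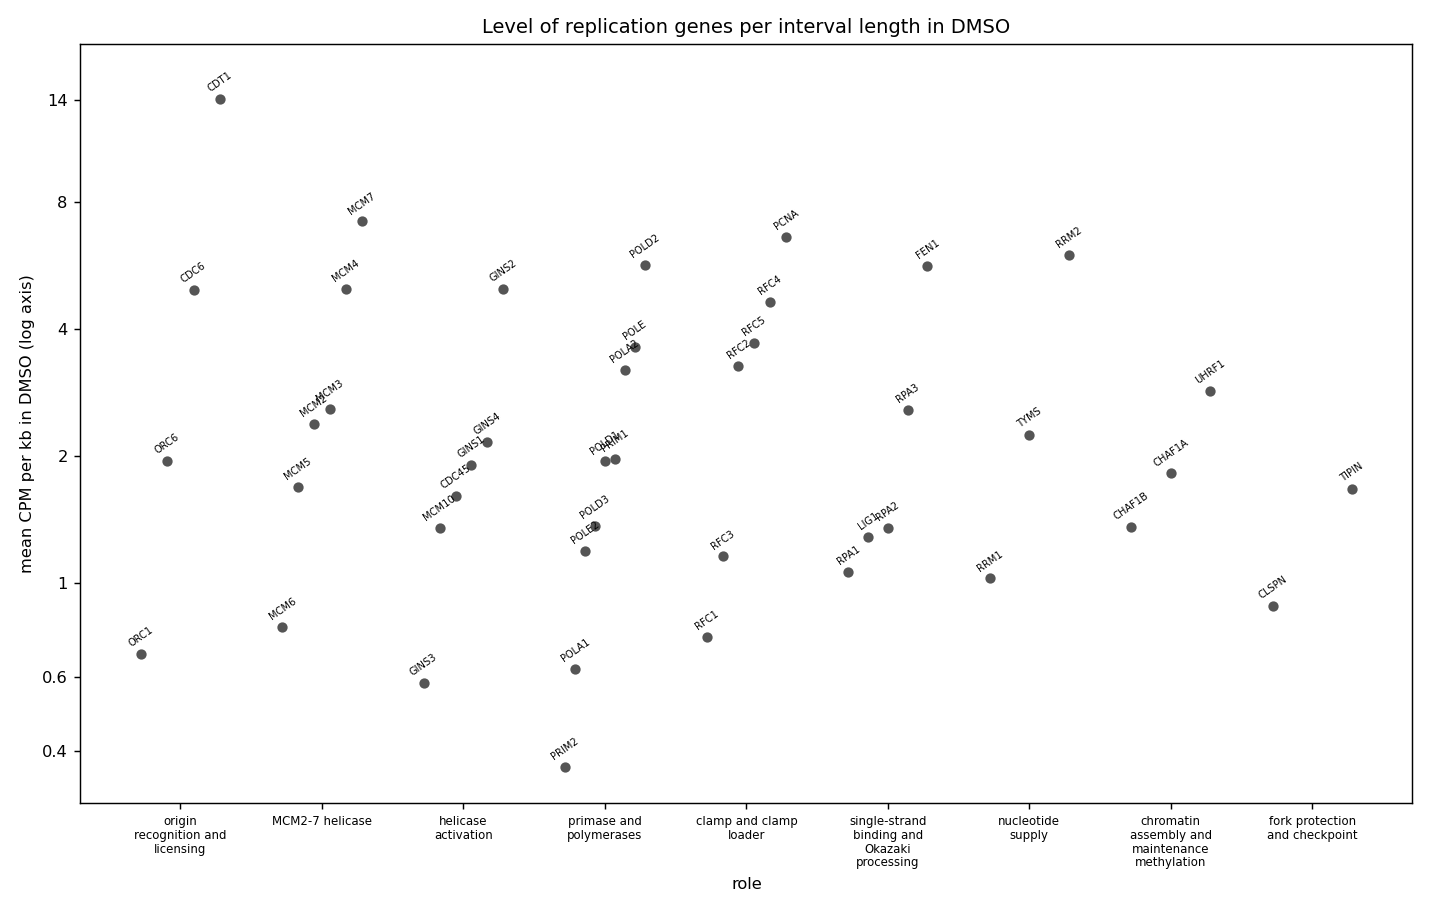
Level of each of the 44 replication genes per kilobase of its interval, in CPM per kb on a log axis, as the mean of the 2 DMSO libraries, with 1 point per gene and the genes grouped by role. The genes run from PRIM2 at 0.367 to CDT1 at 14.1.

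No replication gene differed between the 2 drugs in the edgeR fit: 0 of 44 were called, beside 0.266% of all genes (53 of 19902), and DESeq2 and limma voom also called 0. At an unadjusted p under 0.05 there were 3 of the 44, PRIM2, POLD1 and RFC1, all higher under Degrader. Of all 19902 genes, 1253 were higher and 1558 lower at that level, so 3 of 44 is near the share of all genes. The smallest adjusted p of the 44 was 0.240. The median log2 difference, Degrader minus GDC0068, was 0.07, and 31 of the 44 were higher under Degrader, beside 9727 of the 19902 genes. Both Degrader libraries lay above both GDC0068 libraries for 13 members, beside 22.1% of all genes, and below them for 4, beside 22.9%. The 95% intervals of the 44 differences reached 0.11 to 0.32 to either side, with a median of 0.15, and all lay between -0.40 and 0.43, so differences of that size were not excluded for every gene. MCM5 differed by 0.11 (95% interval -0.05 to 0.27), CDT1 by -0.04 (-0.16 to 0.08) and CLSPN by -0.17 (-0.38 to 0.05). With the replicate block 4 members were higher under Degrader, where 10.4% of all genes were called, 5.03% as higher and 5.35% as lower: PRIM2 (0.20, adjusted p = 0.000724), POLA1 (0.14, 0.00939), UHRF1 (0.12, 0.0432) and RRM2 (0.16, 0.0459).

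**Figure D4:**
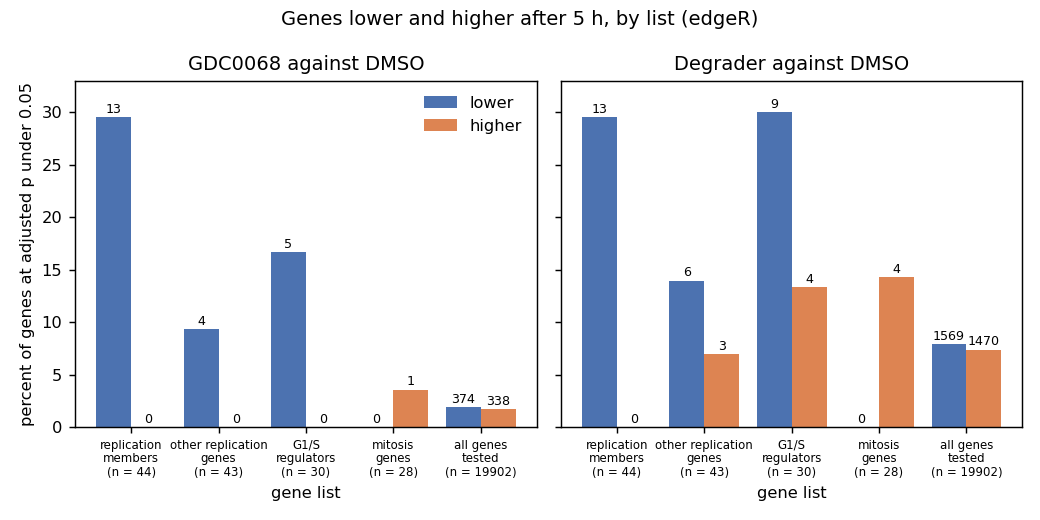
Percent of each list called lower or higher at an adjusted p under 0.05 in each comparison with DMSO, for the 44 replication genes and 3 related lists, beside all genes tested, with the number of genes over each bar. The replication genes stand at 29.5% lower under both drugs and 0% higher.

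Among 43 other genes of replication that are not among the 44, 20.9% were called under Degrader, beside 15.3% of all genes, and 9.3% under GDC0068, beside 3.58%. By edgeR these were 6 that fell and 3 that rose under Degrader, and 4 that fell and 0 that rose under GDC0068. Of all genes 7.88% fell and 7.39% rose under Degrader, and 1.88% fell and 1.7% rose under GDC0068. Under Degrader DESeq2 called 4 lower and 3 higher, and limma voom 6 lower and 3 higher. DESeq2 and limma voom also called 0 higher under GDC0068, with 1 higher at an unadjusted p under 0.05 by edgeR, beside 2072 of 19902 genes. The medians were -0.10 and -0.12. Under the block 17 fell and 6 rose under Degrader (53.5%, beside 30.7% of all genes) and 16 fell and 1 rose under GDC0068 (39.5%, beside 17.8%). RECQL4, a helicase needed to start forks, was at 94.8 ± 5.5 CPM (SD, n = 2) in DMSO, 73.9 ± 2.5 under GDC0068 and 68.4 ± 7.1 under Degrader. Its log2 fold change was -0.47 (SE 0.071, edgeR adjusted p = 0.00158) under Degrader and -0.36 (adjusted p = 0.0220) under GDC0068. SLBP, which binds the stem-loop of histone mRNA, and DNMT1, the maintenance methyltransferase, fell under Degrader by 0.36 and 0.24 on the log2 scale (adjusted p = 0.00343 and 0.00856). Under GDC0068 DNMT1 also fell, by 0.23 (adjusted p = 0.0317), and SLBP was at -0.21 (adjusted p = 0.0923). TK1, thymidine kinase, and WDHD1, which ties polymerase alpha to the helicase, fell under GDC0068 by 0.29 and 0.27 (adjusted p = 0.0130 and 0.0299). Under Degrader TK1 also fell, by 0.16 (adjusted p = 0.0470, but 0.132 by DESeq2 and 0.0532 to 0.263 with each library left out), and WDHD1 was at -0.17 (adjusted p = 0.0702). The Degrader calls of RECQL4 and SLBP held with any library left out, while that of DNMT1 was lost without DMSO replicate 1 (0.0710), Degrader replicate 1 (0.0627) or Degrader replicate 2 (0.0532). Under GDC0068 the highest adjusted p among the fits without 1 library was 0.158 for RECQL4, 0.175 for DNMT1, 0.112 for TK1 (these without DMSO replicate 1) and 0.165 for WDHD1 (without DMSO replicate 2). The 3 that rose under Degrader, a share near that of all genes called higher, were ORC3, MTBP and TOP2A, at 0.25, 0.31 and 0.19. They were named after their values were seen.

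Regulators of the G1 to S transition included genes that moved in opposite directions. Of 30, 43.3% were called under Degrader, beside 15.3% of all genes, and 16.7% under GDC0068, beside 3.58%. By edgeR 9 fell and 4 rose under Degrader and 5 fell and 0 rose under GDC0068. Of all genes 7.88% fell and 7.39% rose under Degrader, and 1.88% fell and 1.7% rose under GDC0068. Under Degrader DESeq2 called 8 lower and 3 higher, and limma voom 9 lower and 4 higher. DESeq2 and limma voom called 0 higher under GDC0068, with 3 higher at an unadjusted p under 0.05 by edgeR, beside 2072 of 19902 genes. The medians were -0.12 for both. Under the block 14 fell and 5 rose under Degrader (63.3%, beside 30.7% of all genes) and 11 fell and 3 rose under GDC0068 (46.7%, beside 17.8%). E2F1, an activating E2F factor, was at 59.8 ± 3.1 CPM (SD, n = 2) in DMSO, 46.7 ± 0.88 under GDC0068 and 44.3 ± 0.22 under Degrader. Its log2 fold change was -0.43 (SE 0.059, edgeR adjusted p = 0.000931) under Degrader and -0.36 (adjusted p = 0.0113) under GDC0068. CDC25A, a phosphatase that activates CDK2, fell by 0.37 under Degrader (adjusted p = 0.00308) and 0.41 under GDC0068 (0.00908), and E2F3 by 0.32 (0.0152) and 0.43 (0.0138). CDKN1B, which encodes p27, was at 24.5 ± 0.78 CPM in DMSO, 28.7 ± 0.042 under GDC0068 and 34.4 ± 0.89 under Degrader. It rose under Degrader by 0.49 (SE 0.073, adjusted p = 0.00158), and was at 0.23 under GDC0068 (adjusted p = 0.118, and 0.0254 with the block). RBL2, a relative of the retinoblastoma protein, rose by 0.34 under Degrader (adjusted p = 0.00188) and was at 0.12 under GDC0068 (0.237). The other six that fell under Degrader, named after their values were seen, were E2F2, E2F4, E2F5, TFDP1, CCNE1 and MYBL2, and the other two that rose were TFDP2 and RB1. E2F1, CDC25A, CDKN1B and RBL2 kept their Degrader call whichever library was left out, and E2F3 lost it without DMSO replicate 1 (0.135) or Degrader replicate 2 (0.136). Under GDC0068 the call of E2F1 was lost without DMSO replicate 1 (0.111) or GDC0068 replicate 2 (0.0702), that of E2F3 without the same libraries (0.112 and 0.0931), and that of CDC25A without DMSO replicate 1 (0.0760), DMSO replicate 2 (0.0545) or GDC0068 replicate 2 (0.0594).

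**Figure D5:**
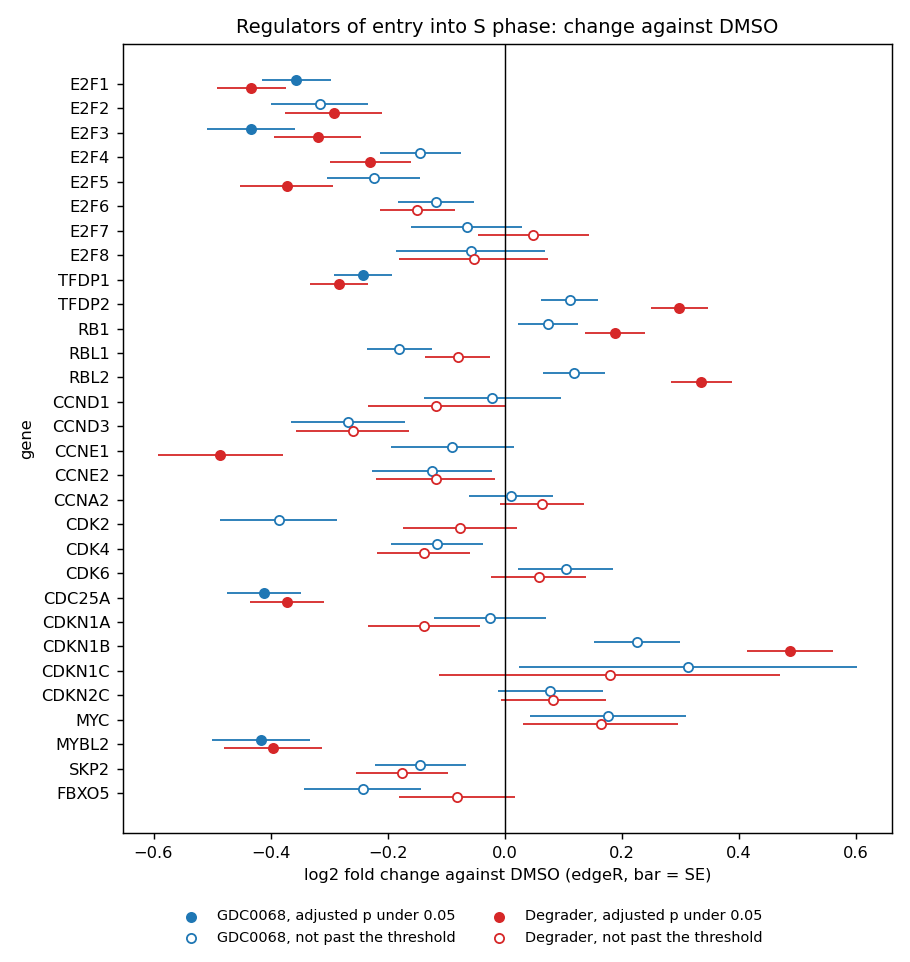
Log2 fold change from DMSO of the regulators of the G1 to S transition under GDC0068 (blue) and Degrader (red), with bars of 1 SE from the edgeR fit; filled points passed an adjusted p of 0.05. E2F1 (-0.36 and -0.43), E2F3 and CDC25A lie below 0, and CDKN1B (0.23 and 0.49) and RBL2 above.

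Of 28 mitosis genes, 0 fell and 4 rose under Degrader, and 0 fell and 1 rose under GDC0068, with medians of 0.08 and -0.03. The share called in either direction, 14.3% and 3.57%, was near that of all genes, 15.3% and 3.58%. All 4 Degrader calls of mitosis genes were higher, where 7.39% of all genes were called higher and 7.88% lower. Positive log2 fold changes were found for 25 of the 28 under Degrader, beside 9886 of 19902 genes. Under GDC0068 they were found for 6 of the 28, beside 10473 of 19902 genes. By DESeq2 and limma voom 0 fell under either drug, and at an unadjusted p under 0.05 by edgeR 0 were lower under Degrader and 1 under GDC0068. Under the block 10 rose and 1 fell under Degrader (39.3%), where 30.7% of all genes were called, 15.1% as higher and 15.7% as lower. Between the drugs, log2 differences were positive for 27 of the 28, beside 9727 of 19902 genes. With the block 13 of the 28 (46.4%) were higher under Degrader than under GDC0068, where 10.4% of all genes were called, 5.03% as higher. Without the block edgeR called 0, limma voom 0 and DESeq2 1. At an unadjusted p under 0.05 by edgeR 17 of the 28 were higher, beside 1253 of 19902 genes. The difference between the lists was not tested. CDC25C, a phosphatase that activates CDK1, rose by 0.50 for Degrader (edgeR adjusted p = 0.000261). Its log2 fold change for GDC0068 was 0.21 (edgeR adjusted p = 0.0487), a call not made by DESeq2 (0.134) or limma voom (0.0590), nor with DESeq2 size factors (0.0531), library totals (0.0501), no filter (0.0543) or 4 libraries (0.0833). That call was also lost without any 1 of the 6 libraries, with an adjusted p of up to 0.206 (without DMSO replicate 1), and the Degrader call never. NDC80, of the kinetochore, and CENPF, a centromere protein, rose under Degrader by 0.33 (0.00479) and 0.21 (0.0188). The call of NDC80 was lost without DMSO replicate 1 (0.0669) or Degrader replicate 2 (0.0588), and that of CENPF without any DMSO or Degrader library, with an adjusted p of up to 0.151 (without DMSO replicate 1). The fourth that rose under Degrader, named after its value was seen, was TPX2, at 0.18.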

How the data were processed

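PRO-seq counts of 6 T47D libraries in 3 arms were analysed. The values are raw counts per gene interval, deposited by the authors as 1 table; that they are not normalized follows from the whole numbers and differing totals. Per the submitters' processing notes, cutadapt 1.14, Bowtie 1.2.2, SAMtools 1.3.1, HISAT2 2.2.1 and limma were used with the builds hg38, GRCh38 and dm3, with no role given for each. The counted part of a gene, the use of strand and any spike-in scaling are not given in the sources used here, so a change common to all genes is removed and reads of overlapping genes cannot be told apart: 37 of the 44 intervals overlap no other interval, 4 overlap one on the same strand and 3 on the opposite strand alone.

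Members and related lists were chosen with earlier results of these data known. Counts were fitted in R 4.3.3 with edgeR 4.0.16 (filterByExpr at its minimum of 10 counts and total of 15, TMM factors of 0.997 to 1.003, glmQLFit and glmQLFTest, a term per arm over all 6 libraries, 3 residual degrees of freedom), and p-values were adjusted by Benjamini-Hochberg over 19902 genes. A call is an adjusted p under 0.05, adjusted p values without a named setting come from this fit, and SE is the size of the log2 fold change over the square root of F. CPM is counts per 1000000 of the TMM-scaled total. The script was tested on simulated data. Replicate counts of an arm differed by more than sampling noise (chi-square per degree of freedom 4.98 to 6.91).

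The series describes 2 independent experiments, and replicate numbers were taken to mark them, which the labels do not say outright; deviations of same-numbered libraries from their arm means correlated at 0.177 to 0.220 over genes. The replicate number as a block was an alternative. Members called in any comparison are given in full (16 genes), with up to 3 called genes of each related list by adjusted p. Alternatives were DESeq2 1.42.0, limma 3.58.1 voom, other size factors and filters, a robust fit, only the 4 libraries compared, a stricter threshold, and each library left out.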

Additional observations from a re-analysis of the deposited data

How the results depend on the processing

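Each arm has 2 libraries, and the fit has 3 residual degrees of freedom. The numbers of members called with the replicate block were 22 for Degrader, 27 for GDC0068 and 4 between drugs, against 13, 13 and 0 without it. The share of all genes called was not counted at an adjusted p under 0.01. At that threshold and without the block, the numbers of members called were 7 for Degrader and 6 for GDC0068. With each library left out in turn and no block they ranged from 4 to 15 under Degrader, from 0 to 11 under GDC0068 and stayed at 0 between the drugs, and the median log2 fold changes ranged from -0.18 to -0.13, from -0.25 to -0.13 and from 0.013 to 0.12. Over members whose interval overlaps no other, the Degrader median was -0.18. The block changed calls of all genes to 6114 for Degrader, 3540 for GDC0068 and 2065 between drugs, from 3039, 712 and 53, and leaving out a library gave 931 to 3217, 37 to 546 and 5 to 63. Between the drugs DESeq2 called 141 genes, the robust fit 116 and the fit on 4 libraries 23. Under the other normalizations, filters and tools all 13 Degrader calls of members were kept and 11 of the 13 GDC0068 calls: MCM6 was lost with library totals (adjusted p = 0.0516), the stricter filter (0.0502) and 4 libraries (0.0610), and POLA2 with 4 libraries (0.0519). MCM4 gained a GDC0068 call with DESeq2 size factors (0.0480), the robust fit (0.0445) and no filter (0.0499), and POLA2 a Degrader call with the robust fit (0.0479) and 4 libraries (0.0258). The causes were not tested. The block changed no sign of a median.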
